A study of Rattus norvegicus with 12 samples.

Results

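Tnfrsf12a, Il1rl1 and Adgrg1 encode cell surface receptors of 3 different families, and they are described here across all 12 arrays of a study of rat tail tendon fascicles under cyclic tensile strain. The members are the probes whose platform annotation carries one of these symbols. There were 3 such probes, 1 for each gene, among 13336 named genes and 22517 probes in the table. The genes had been picked because they stood among the largest rises after 24 h of strain, so their values in that contrast are given as a description and carry no test.

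Fascicles are the fine collagen bundles of a tendon, with tenocytes, the resident fibroblasts, lying in rows between the fibres. The groups were fascicles strained in vitro for 24 h, fascicles left unstrained for 24 h, fascicles strained for 1 h and fascicles left unstrained for 1 h, with 3 RNA samples in each and 1 Illumina bead array per sample. All came from rat tail tendon. The labels name no genetic change or drug, and the sources used here give no rat strain, age, number of animals, or amplitude and rate of stretching. They also do not say if the samples of a group are separate animals or cultures, so the p-values cover only the variation among these samples, and that may be technical. Values are normalized intensities on a linear scale, on which every array had a median of 57.0 and a lowest value of 33.7, so a reading near 57 cannot be told from background here.

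Tnfrsf12a encodes Fn14, a small member of the tumour necrosis factor (TNF) receptor superfamily. It has no death domain and signals through TRAF adaptors to NF-kappaB when it binds TWEAK, the product of Tnfsf12, and it is known as a gene that growth factors and injury switch on in fibroblasts. Il1rl1 encodes ST2, which pairs with the accessory chain Il1rap to bind the cytokine encoded by Il33 and signals through Myd88. A soluble form made from the same gene acts as a decoy, and a probe named only by gene symbol does not separate the forms. Adgrg1, formerly Gpr56, encodes an adhesion G protein-coupled receptor that cleaves itself, couples to the G proteins encoded by Gna12 and Gna13 and so activates RhoA. Type III collagen and transglutaminase 2 are ligands described for it.

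The promoter windows of the 3 genes are shown because the probes were higher together after 24 h of strain. Each holds 250 bases before and 50 bases after a start given by RefSeq for assembly GRCr8, and was matched by symbol for 3 of 3 genes. They lie at chr10:13213599-13213898 on the minus strand for Tnfrsf12a, at chr9:50203388-50203687 on the plus strand for Il1rl1 and at chr19:10047089-10047388 on the minus strand for Adgrg1. Capitals mark the GC box, the only searched motif that was found. RefSeq lists 2 transcripts of Tnfrsf12a, 11 of Il1rl1 and 8 of Adgrg1, predicted ones included, so each window covers one of possibly several starts.
Tnfrsf12a: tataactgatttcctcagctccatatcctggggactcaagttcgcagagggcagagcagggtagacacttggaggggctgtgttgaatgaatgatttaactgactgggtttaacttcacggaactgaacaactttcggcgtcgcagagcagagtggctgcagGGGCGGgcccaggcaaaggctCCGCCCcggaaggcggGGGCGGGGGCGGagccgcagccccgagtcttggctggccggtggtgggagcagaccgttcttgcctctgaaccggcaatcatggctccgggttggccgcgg
Il1rl1: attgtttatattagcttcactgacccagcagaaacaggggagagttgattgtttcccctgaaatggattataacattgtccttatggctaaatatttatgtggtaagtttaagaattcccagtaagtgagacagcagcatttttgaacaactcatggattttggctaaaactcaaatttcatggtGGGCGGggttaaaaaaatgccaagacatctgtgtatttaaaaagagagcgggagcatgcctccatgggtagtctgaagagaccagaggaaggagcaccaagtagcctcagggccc
Adgrg1: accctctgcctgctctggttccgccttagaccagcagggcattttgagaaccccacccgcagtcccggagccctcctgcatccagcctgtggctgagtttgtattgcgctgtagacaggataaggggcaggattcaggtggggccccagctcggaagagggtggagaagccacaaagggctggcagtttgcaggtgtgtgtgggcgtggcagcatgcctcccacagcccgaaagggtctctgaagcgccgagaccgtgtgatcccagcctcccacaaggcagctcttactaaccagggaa

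These windows differed in base composition. Guanine and cytosine made up 61.3% of the Tnfrsf12a window, 42% of the Il1rl1 window and 61% of the Adgrg1 window, and CG pairs numbered 19, 2 and 10. These motifs were searched on both strands, with overlapping matches counted: AP-1 (TGANTCA), TEAD (GGAATG), the GC box (GGGCGG), the CArG box of SRF and the NF-kappaB motif. The GC box was matched 4 times in the Tnfrsf12a window, between 88 and 45 bases before the start, and 1 time in that of Il1rl1, 65 bases before it. No match was found for the GC box in the Adgrg1 window, or for the other motifs in any of the 3. Of all 33469 rat promoter windows of this length, 33.1% held a GC box, 7.33% the AP-1 motif, 14.2% the TEAD motif, 1.64% a CArG box and 7.51% the NF-kappaB motif. A match of letters is no measure of binding.

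After 24 h of strain, the Tnfrsf12a probe read 1086, 1161 and 1132 in strained fascicles, against 462, 386 and 401 in unstrained fascicles. After 1 h it read 2098, 1143 and 2179 in strained fascicles, against 1612, 919 and 1587 in unstrained fascicles. The 3 strained arrays at 24 h were close together and all above the unstrained arrays of that time, while the groups overlapped at 1 h and replicate 2 was the lowest of both. The 24 h means were 1126 ± 37.8 in strained and 417 ± 40.2 in unstrained fascicles (SD, n = 3 each), 2.71-fold higher under strain, with a log2 fold change of 1.44 ± 0.25 (SE of the fit). By this order it stood 5th from the top among 11258 probes kept for testing.

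The Il1rl1 probe read 282, 321 and 203 in fascicles strained for 24 h, against 118, 166 and 91.2 in unstrained fascicles. At 1 h it read 486, 703 and 410 in strained fascicles, against 671, 554 and 462 in unstrained fascicles. The 24 h groups did not overlap, and every 24 h array lay below every 1 h array. The 24 h means were 269 ± 59.7 in strained and 125 ± 38.0 in unstrained fascicles (SD, n = 3 each), 2.17-fold higher under strain, with a log2 fold change of 1.12 ± 0.25, 16th from the top.

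The Adgrg1 probe read 256, 412 and 403 in fascicles strained for 24 h, against 98.4, 138 and 105 in unstrained fascicles. At 1 h it read 181, 73.2 and 106 in strained fascicles, against 160, 65.9 and 79.4 in unstrained fascicles. Only the fascicles strained for 24 h stood apart, and replicate 1 was the highest of both groups at 1 h. The 24 h means were 357 ± 87.9 in strained and 114 ± 21.0 in unstrained fascicles (SD, n = 3 each), 3.10-fold higher under strain, and the log2 fold change of 1.63 ± 0.36 was the highest of all 11258 probes. Adgrg1 was the dimmest of the 3 at 1 h, with readings down to 65.9, and the background that remains in the values makes folds of such dim readings smaller than those of the transcript.

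**Figure D1:**
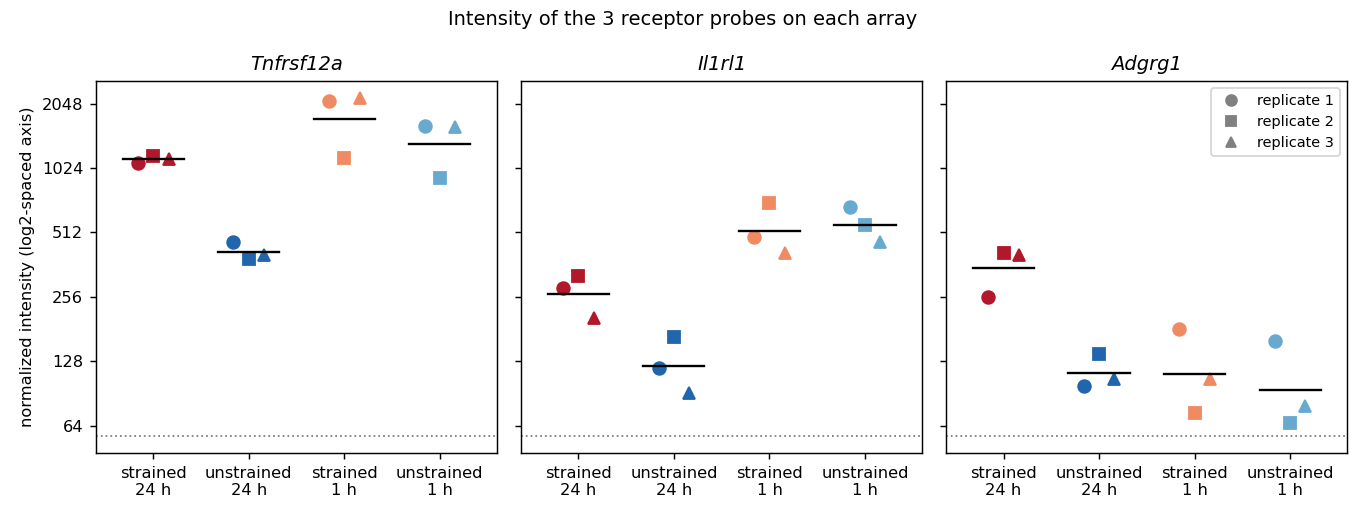
Normalized intensity (log2-spaced axis) of the Tnfrsf12a, Il1rl1 and Adgrg1 probes on each of the 12 arrays, by group; symbols give the replicate number, bars the geometric mean of 3 arrays and the dotted line the array median of 57.0. Strained arrays at 24 h all lie above the unstrained arrays of that time in each panel, while the 1 h groups overlap.

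At 24 h, limma called 263 of the 11258 probes at a Benjamini-Hochberg adjusted p under 0.05, which is 2.34%, with 0.968% called as higher and 1.37% as lower. With the replicate number as a block 7.83% were called, though same-numbered arrays did not deviate together in every pair at that time. All 3 strained arrays lay above the 3 unstrained ones for 11.2% of the probes tested. The 3 receptors were chosen from this contrast, so nothing is read from where they stand against these shares. In tissue RNA, a change in the number of cells of a type and a change of RNA per cell cannot be told apart.

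The 1 h contrast was not used to choose the genes, and there none of the 3 passed the test. Tnfrsf12a had a value of 0.38 ± 0.25 on the log2 scale (limma adjusted p = 0.981), with a 95% interval from -0.15 to 0.92. For Adgrg1 it was 0.25 ± 0.36 (limma adjusted p = 0.991), with an interval from -0.52 to 1.02. For Il1rl1 it was -0.10 ± 0.25 (limma adjusted p = 0.995), with an interval from -0.65 to 0.45. Intervals this wide do not show that the receptors were unmoved.

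Limma called 0 of 11258 probes at 1 h, 0% of those tested. At an unadjusted p under 0.05 there were 552 probes, 4.9% of those tested, and none of the 3 receptors was among them. Limma with trended variances and robust estimation called 1 probe.

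Same-numbered arrays at 1 h shared much of their spread, and taking the number as a pair narrowed the errors. Strained minus unstrained, the log2 differences of Tnfrsf12a were 0.38, 0.31 and 0.46 in the 3 pairs, alike in size. Those of Adgrg1 were 0.18, 0.15 and 0.42. Il1rl1 had -0.47, 0.35 and -0.17, with no common direction. Tnfrsf12a and Adgrg1 were thus higher under strain in 3 of 3 pairs, as were 15.1% of all probes tested.

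When the number entered the model as a block for each time, 23 probes passed at 1 h, 0.204%, and none of them was one of the receptors. Tnfrsf12a came nearest, at 0.38 ± 0.10 with an unadjusted p of 0.0025 and an adjusted p of 0.231. Adgrg1 stood at 0.25 ± 0.12 with an adjusted p of 0.562, and Il1rl1 at -0.10 ± 0.14 with an adjusted p of 0.886.

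Over culture time the means of Tnfrsf12a and Il1rl1 were lower, and that of Adgrg1 was not. No test between the receptors was run. In unstrained fascicles Tnfrsf12a was 3.20-fold lower at 24 h than at 1 h, a log2 difference of -1.68 ± 0.25. Il1rl1 was 4.57-fold lower, at -2.19 ± 0.25. Adgrg1 differed by 0.26 ± 0.36, which is within its spread. These unstrained 24 h arrays are also the controls of the strain contrast at 24 h, so the values are descriptions with no test.

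Under strain the same interval gave another picture. Tnfrsf12a was 1.54-fold lower in fascicles strained for 24 h than in those strained for 1 h, at -0.62 ± 0.25 on the log2 scale. Il1rl1 was 1.97-fold lower, at -0.98 ± 0.25, and Adgrg1 was 3.12-fold higher, at 1.64 ± 0.36.

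Set against the unstrained fascicles at 1 h, the fascicles strained for 24 h held Tnfrsf12a at a log2 difference of -0.24 ± 0.25, Il1rl1 at -1.07 ± 0.25 and Adgrg1 at 1.89 ± 0.36. Tnfrsf12a after 24 h of strain thus overlapped its early level, Il1rl1 lay 2.11-fold below it and Adgrg1 3.71-fold above it. The higher reading under strain at 24 h was for Tnfrsf12a and Il1rl1 a smaller drop with time than in unstrained fascicles, and for Adgrg1 a level above every array of the other groups. The strain effect at 24 h exceeded that at 1 h by 1.06 ± 0.35 on the log2 scale for Tnfrsf12a, 1.22 ± 0.36 for Il1rl1 and 1.38 ± 0.50 for Adgrg1. Of all probes, 0.0799% were called for this difference, all of them with a negative difference, and 1.63% with the replicate block. These 3 receptors carry no test here.

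The order of the group means shows the same. For Tnfrsf12a it ran from 1806 ± 576 in fascicles strained for 1 h through 1373 ± 393 in unstrained fascicles at 1 h and 1126 ± 37.8 in fascicles strained for 24 h to 417 ± 40.2 in unstrained fascicles at 24 h (SD, n = 3 each). Neighbours in this order overlapped except for the last, the unstrained 24 h group. For Il1rl1 the means at 1 h were 533 ± 152 in strained and 562 ± 105 in unstrained fascicles (SD, n = 3 each), and they overlapped, while both 24 h groups stood apart below them and from each other. For Adgrg1 they were 120 ± 55.1 in strained and 102 ± 50.8 in unstrained fascicles at 1 h (SD, n = 3 each), and both overlapped the unstrained group at 24 h.

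**Figure D2:**
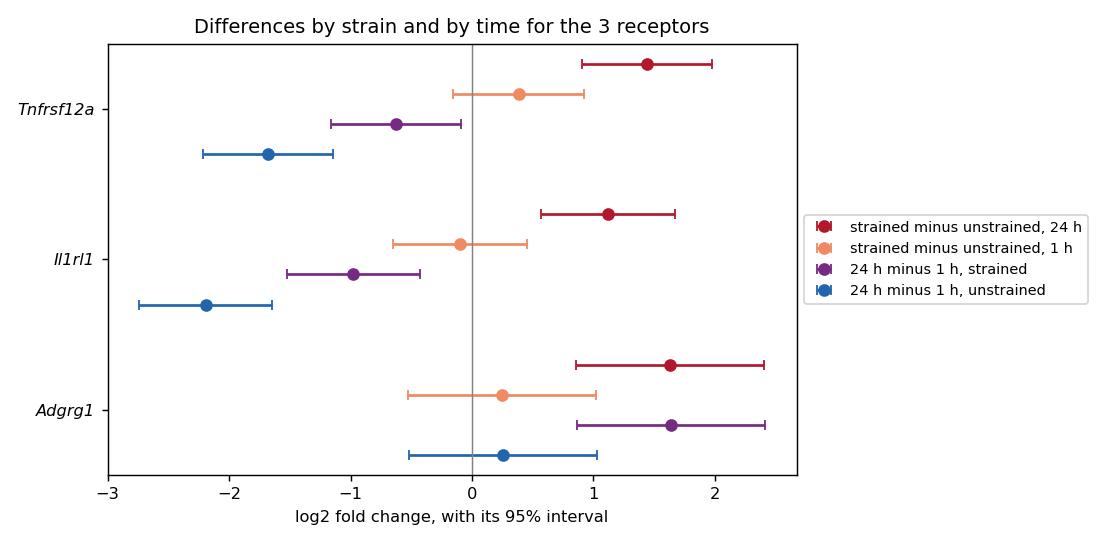
Log2 fold changes with their 95% intervals for each receptor, by strain at 24 h, by strain at 1 h, and for 24 h against 1 h in strained and in unstrained fascicles. The strain difference at 24 h is positive for all 3, that at 1 h has an interval across 0 for all 3, and the time difference in unstrained fascicles is far below 0 for Tnfrsf12a and Il1rl1 and near 0 for Adgrg1.

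All 3 probes varied more between replicates than most. The residual SD on the log2 scale was 0.36 for Tnfrsf12a, 0.37 for Il1rl1 and 0.52 for Adgrg1, against a median of 0.15 over the probes tested, so that 94.8%, 95.2% and 98.4% of probes had a spread as small or smaller. For Tnfrsf12a that spread came from the 1 h arrays, where the SD was 31.9% of the mean in strained and 28.7% in unstrained fascicles, against 3.35% and 9.65% at 24 h. For Adgrg1 it was 45.9% and 49.9% at 1 h, against 24.6% and 18.5% at 24 h.

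Of the ligands, Il33 was measured above background and Tnfsf12 hardly. The probe for Il33 read 152, 134 and 89.2 in fascicles strained for 24 h, against 253, 161 and 187 in unstrained fascicles. All strained arrays were below the unstrained ones, as for 9.34% of the probes tested. The log2 fold change of -0.69 ± 0.32 did not pass (limma adjusted p = 0.382). At 1 h Il33 differed by -0.42 ± 0.32 (limma adjusted p = 0.991).

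Tnfsf12, the TWEAK ligand of Fn14, read between 65.9 and 103 on all 12 arrays. Its mean at 24 h was 73.1 ± 8.89 in strained and 84.2 ± 5.28 in unstrained fascicles (SD, n = 3 each), and the fit gave -0.21 ± 0.13 on the log2 scale (limma adjusted p = 0.604). Cd163, a scavenger receptor that also binds TWEAK, stayed between 49.8 and 62.9, at the array median. Of the ligands of Adgrg1, Tgm2 lay between 61.3 and 88.0 and differed by -0.12 ± 0.10 at 24 h, and Col3a1 differed by -0.53 ± 0.71 with a range from 85.1 to 937. Neither passed the test (limma adjusted p = 0.769 for Tgm2 and 0.885 for Col3a1).

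The partners inside the cell did not pass for strain at 24 h either. Traf2 and Traf3, adaptors of Fn14, had log2 fold changes of 0.10 and 0.06, Myd88, the adaptor of ST2, of -0.02, and Rhoa, the GTPase downstream of Adgrg1, of 0.03. Traf3 read only 54.1 to 64.3 on the 12 arrays, around the array median, so its value says little. Il1rap read at most 58.6 on any array, Gna12 at most 61.6 and Gna13 at most 56.7, and these 3 were left out of the tests as too dim.

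The wider pathway lists were chosen with earlier results of these data known. They are described by counts beside the 2.34% of all probes called at 24 h. Many kept list genes had mean intensities near the array median, such as Traf6 (56.5), Map3k14 (59.8) and Sigirr (57.4). A count of 0 called says little of such genes. Of the TWEAK receptor pathway, TRAF adaptors, kinases and NF-kappaB subunits, 0 of 20 kept genes were called at 24 h, 14 had a positive value and the median log2 fold change was 0.07, against 0.01 over all probes tested. Rac1 (0.22 ± 0.09) and Birc3 (-0.78 ± 0.45), an inhibitor of apoptosis, had the smallest p and did not pass. Of the Il1rl1 pathway 0 of 19 were called, with a median of 0.11. Irak3, which damps signalling through Myd88, stood nearest at -0.41 ± 0.10 (limma adjusted p = 0.0593), with 59.2, 59.8 and 65.6 in strained and 77.7, 85.5 and 81.4 in unstrained fascicles.

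Within the TNF receptor superfamily, Tnfrsf12a had 9 kept relatives, and 0 of them were called at 24 h. Tnfrsf11b, the decoy receptor osteoprotegerin, had the nearest value, a value of 1.24 ± 0.55 on the log2 scale (limma adjusted p = 0.352). It read 255, 258 and 147 in fascicles strained for 24 h, against 76.5, 127 and 76.3 in unstrained fascicles, without overlap. At 1 h Tnfrsf11b had the opposite sign, at -0.93 ± 0.55 (limma adjusted p = 0.981). Fas, a death receptor, stood at -0.26 ± 0.21, and the median of the 9 was -0.02. The mean intensities of Tnfrsf4, Relt, Fas, Tnfrsf21 and Tnfrsf25 were only 57.2 to 62.4, near the array median, so their values say little.

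Of 6 kept TNF ligands, 1 was called, Tnfsf13, which encodes the lymphocyte survival factor APRIL. It read 228, 185 and 228 in fascicles strained for 24 h, against 598, 491 and 847 in unstrained fascicles. The strained arrays were all lower, and the log2 fold change was -1.56 ± 0.19 (limma adjusted p = 0.00245). In unstrained fascicles Tnfsf13 was higher at 24 h than at 1 h by 1.20 ± 0.19 on the log2 scale, where Tnfrsf12a was lower. That difference shares its unstrained 24 h arrays with the strain contrast that named Tnfsf13, so it is given as a description.

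Of the interleukin 1 receptor and ligand family, 9 genes beside Il1rl1 were kept and 0 were called at 24 h, with 6 negative values and a median of -0.26. Il18bp, a secreted decoy for interleukin 18, stood at -0.41 ± 0.13 (limma adjusted p = 0.141), at a dim mean intensity of 61.3. Of 7 other kept adhesion G protein-coupled receptors, 1 was called, Adgre1, the macrophage receptor known as F4/80. It read 57.4, 69.6 and 69.8 in fascicles strained for 24 h, against 100.4, 125 and 135 in unstrained fascicles. The log2 fold change was -0.87 ± 0.13 (limma adjusted p = 0.00619).

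Adgre1 is also on the list of macrophage and leucocyte markers. Of its 8 kept markers Adgre1 was the 1 that passed at 24 h, the other 7 also had a negative value without passing, and the summed intensity of the 9 on the array was 1386 to 1959 in strained and 2254 to 3018 in unstrained fascicles. The brightest was Cd14, with up to 1620. Ptprc and Cd163 stayed at the array median, with highest values of 63.4 and 62.9. The part of these cells in the values of Adgre1 and Tnfsf13 was not tested.

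Targets of NF-kappaB, the factor that both Fn14 and ST2 activate, showed no common direction at 24 h. Of 20 kept, 10 had a positive and 10 a negative value, the median was -0.02, and 1 was called. That was the gelatinase Mmp9, at -0.65 ± 0.15 (limma adjusted p = 0.0446), with 67.5, 86.3 and 78.3 in strained and 107, 145 and 114 in unstrained fascicles. That call did not hold in 9 of 12 fits with 1 array removed. The highest adjusted p was 0.154, when unstrained replicate 2 at 24 h was removed. At 1 h, 17 of the 20 had a positive value, at a median of 0.21 against -0.0012 over all probes tested, and 0 were called.

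**Figure D3:**
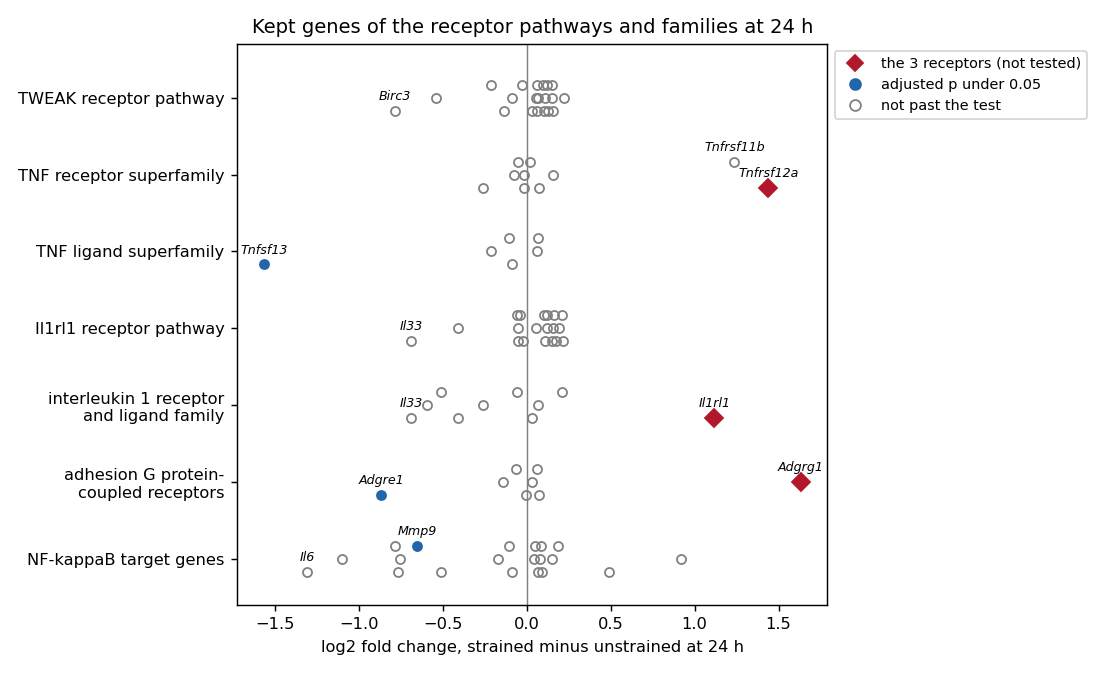
Log2 fold change of strained minus unstrained fascicles at 24 h for every kept gene of 7 pathway and family lists, 1 point per gene and list. The 3 receptors, picked for their rise at 24 h and given without a test, lie at 1.44, 1.12 and 1.63. Tnfsf13, Adgre1 and Mmp9, the genes past the test, all lie below 0.

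Over time in unstrained fascicles, where limma called 17.2% of all probes (9.83% higher and 7.42% lower at 24 h), the Il1rl1 pathway had 4 of 19 genes lower at 24 h and 1 higher. Those lower, chosen after their values were seen, were Myd88 (-0.32 ± 0.08), the kinase Irak1 (-0.50 ± 0.12), the NF-kappaB subunit Rela (-0.62 ± 0.15) and the ubiquitin ligase subunit Rnf31 (-0.44 ± 0.08). Tmed1, a trafficking protein that binds ST2 in human cells, was higher by 0.46 ± 0.11. Other reported lists also had genes called over time. The TWEAK receptor pathway had 2 of 20 genes lower and 1 higher, with Rela on both lists. The 7 other adhesion G protein-coupled receptors had 2 lower and 1 higher. Among NF-kappaB targets 0 of 20 were lower and 3 higher, and among TNF ligands 0 of 6 were lower and 1 higher. For the TNF receptor relatives and the interleukin 1 family 0 of 9 each were called.

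The tissue label was checked against markers. All 8 tenocyte markers on the array were kept, with Col1a2 and Dcn at mean intensities of 11474 and 9498, and their summed level at 24 h overlapped between strained (27529 to 37743) and unstrained (32026 to 39395) fascicles. Il1rl1 is also a marker of mast cells and type 2 lymphocytes, and Adgrg1 of cytotoxic lymphocytes. No mast cell marker read above 73.4 on any array, none of the T cell list above 66.7 and none of the cytotoxic list above 64.1, all near the array median. No endothelial marker read above 70.6 and no keratinocyte marker above 61.6. Skeletal muscle markers reached 144, in Tnnt3, smooth muscle and pericyte markers 273, in Cspg4, and nerve and Schwann cell markers 4133, in Pmp22, which fibroblasts also express. At 24 h the summed level of the smooth muscle and pericyte list was 401 to 509 in strained and 314 to 350 in unstrained fascicles, and that of the nerve list 1292 to 1373 in strained and 1675 to 1736 in unstrained fascicles. Limma called 1 of 3 kept genes of the muscle and pericyte list as higher, Cspg4, at 0.81 ± 0.15 (limma adjusted p = 0.0190). It called 1 of 5 of the nerve list as lower, Cnp, at -0.90 ± 0.21 (limma adjusted p = 0.0474). Over all probes tested, 0.968% were called as higher and 1.37% as lower, and 1 gene does not stand for a cell type. The part of these cell types in the values of the receptors was not tested.

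Over all probes, 2 arrays from one group had a Pearson correlation of 0.969 to 0.985, and 2 arrays from different groups one of 0.922 to 0.986. For arrays, their number limits the precision of each value.

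The genes whose pattern was most like each receptor were found by the root mean square difference of log2 values over the 12 arrays, after subtracting each probe's own mean, among 7779 other kept genes. For Tnfrsf12a they were Map3k6, a stress-activated kinase (0.30), Ppp1r15a, also called Gadd34 (0.34), the fibronectin receptor subunit Itga5 (0.35), the adhesion adaptor Nedd9 (0.36) and Mapk6 (0.36), against a median of 0.85. Their log2 fold changes for strain at 24 h ran from 0.55 for Ppp1r15a to 0.77 for Map3k6, and for time in unstrained fascicles from -1.38 for Nedd9 to -1.11 for Mapk6. These differences were smaller than those of Tnfrsf12a. Since Tnfrsf12a was picked for its large value at 24 h of strain, nothing is read from that.

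For Il1rl1 the most alike were Rflnb (0.36), Pvr, the poliovirus receptor and nectin-like adhesion molecule (0.38), the retinoic acid hydroxylase Cyp26a1 (0.44), Fam3c (0.44) and Nucb2 (0.45), against a median of 0.95. Pvr came closest in the strain difference at 24 h, at 1.01, and Nucb2 stood at 0.21. For Adgrg1 they were Ccnd1, cyclin D1 (0.46), Basp1, a membrane-bound growth cone protein (0.46), the thioesterase Acot7 (0.46), the DNA repair enzyme Apex1 (0.49) and the replicative helicase subunit Mcm6 (0.51), against a median of 0.88. Ccnd1 had a log2 fold change of 1.54 for strain at 24 h and Basp1 of 1.31. The genes like each receptor were picked by their pattern over the same arrays, so nothing is read from their strain values.

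Between the receptors, the difference in pattern was 0.58 for Tnfrsf12a and Il1rl1, which made Il1rl1 the 123rd nearest of 7779 genes to Tnfrsf12a. It was 1.11 for Tnfrsf12a and Adgrg1 and 1.38 for Il1rl1 and Adgrg1, both above the median.

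**Figure D4:**
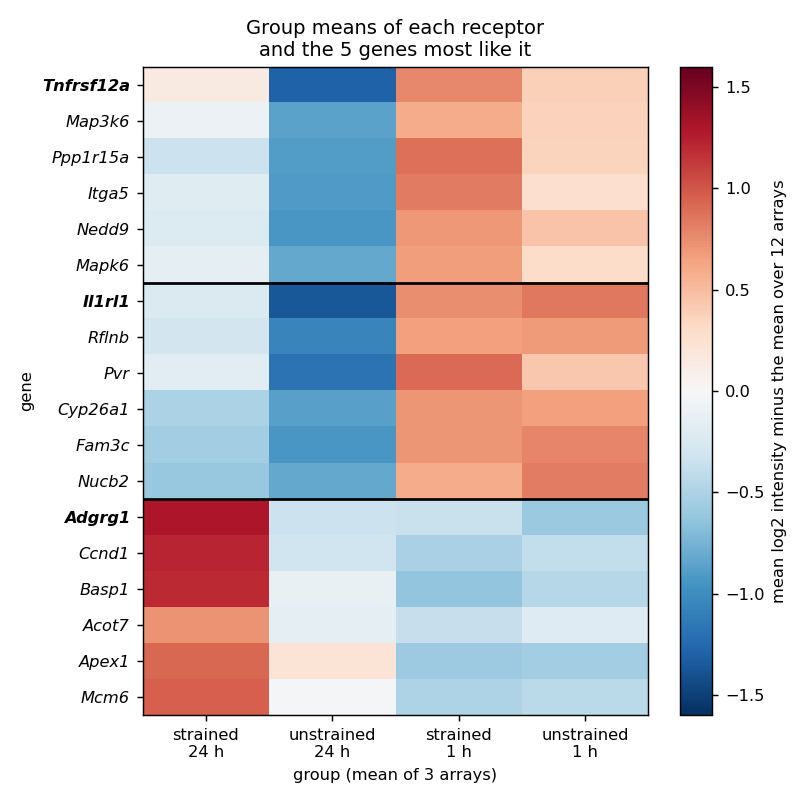
Mean log2 intensity of each group minus the mean over all 12 arrays, for each receptor and the 5 genes most like it, in colour (red above and blue below the mean). Tnfrsf12a, Il1rl1 and the genes like them are highest at 1 h and lowest in unstrained fascicles at 24 h. Adgrg1 and the genes like it are highest in fascicles strained for 24 h. The genes were picked for this likeness over the same 12 arrays.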

How the data were processed

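Gene expression in rat tail tendon fascicles was read from 12 Illumina arrays, 3 per group. The values are the deposited table of linear intensities, 1 per probe and array, already normalized by the authors: once sorted, the arrays hold the same values within 0.0928%. The normalization software and any background subtraction were not given in the sources used here. Another table names its 24 columns of per-sample values only by number, so none was used. Total RNA was extracted with Trizol and cleaned on columns, per the labels' protocols.

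Intensities were taken to log2, and the upper 50% of probes by mean over all arrays were kept (11258, the dimmest at 56.2). Tests used limma 3.58.1 in R 4.3.3, two-sided, with 1 mean for each of the groups and all 12 arrays in the fit, and Benjamini-Hochberg adjustment over the kept probes at 0.05; residual degrees of freedom were 8 and prior ones 4.08. An error not marked as SD is the fit's standard error. The receptors were tested at 1 h only. Names came from GEO's platform annotation (13787 probes with 1 symbol, 8730 unnamed here), compared with GRCr8 records, which changed 0 symbols. Of 288 list entries 287 matched a gene, 226 were on the array and 146 were kept. The brightest probe stood for a gene.

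The receptors, the 8 pathway and family lists, the 10 marker lists and the tests were chosen with earlier results of these data known; 1 pathway list is not reported here. Genes named were the receptors, their fixed ligands and partners, the called genes of each list (at most 6, or the 2 of smallest p), and the 5 genes most like each receptor. Others are marked as chosen after their values were seen. Same-numbered arrays deviated together at 1 h (correlations of 0.60, 0.54 and 0.52) and not in every pair at 24 h (0.039, 0.31 and 0.39), so the numbers were taken as pairs at 1 h only. The fit was tested on simulated data. Alternatives were other filters, a background subtraction (array minimum removed, 16 added), median centring, trend and robust estimation, array weights, replicate blocks, only the groups compared, and leaving out each array. Python 3.11.15 with matplotlib 3.10.9 drew the figures.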

Additional observations from a re-analysis of the deposited data

How the results depend on the processing

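The log2 fold changes of the 3 receptors for strain at 24 h, for time in unstrained fascicles and for the difference of strain effects moved by less than 1 residual SD under each alternative run, and none changed sign. Filters, median centring, trend and robust estimation, replicate blocks and a fit of only the groups compared cannot move these values here. Only the background subtraction, array weights and leaving out an array could. At 24 h of strain the log2 fold changes ranged from 1.39 to 1.52 for Tnfrsf12a, 0.91 to 1.34 for Il1rl1 and 1.51 to 1.86 for Adgrg1. Since their 24 h groups do not overlap, the direction there is fixed by the choice of genes. At 1 h no alternative brought any of the 3 past the test. Without each array in turn, Tnfrsf12a ranged from 0.12 to 0.68, Adgrg1 from -0.096 to 0.63, negative without strained replicate 1 (-0.096) or unstrained replicate 2 (-0.0088), and Il1rl1 from -0.32 to 0.073, positive without strained replicate 3 (0.073) or unstrained replicate 1 (0.039). Of the ligands and partners at 24 h, leaving out an array gave -1.28 to 0.26 for Col3a1, -0.078 to 0.010 for Myd88 and -0.071 to 0.14 for Rhoa.

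The counts of probes called moved more, and the causes were not tested. With trend and robust estimation there were 1 at 1 h and 19 for the difference of strain effects, where the count was 9. With the replicate block within each time they were 23 at 1 h, 882 at 24 h (263 without it) and 184 for the difference. With the replicate block over all 12 arrays the difference had 30, and with array weights 24 h had 558. The 1 h arrays alone with the replicate block, an alternative chosen after seeing the data, gave 32, among them 1 TNF receptor relative of Tnfrsf12a and 2 NF-kappaB targets. For time, the replicate block over all 12 arrays was run. The block within each time was not, since each of its blocks lies within 1 time. Leaving out an array gave 0 to 2 at 1 h (2 without unstrained replicate 1), 7 to 16 for the difference (15 without strained replicate 3 and 16 without unstrained replicate 1 at 1 h), 69 to 307 at 24 h, and 1227 to 2117 for time (1942 with every array, 1227 without unstrained replicate 1 at 24 h). At 24 h it was 69 and 95 without strained replicates 2 and 3, and 109, 118 and 107 without unstrained replicates 1, 2 and 3.

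Tnfsf13 and Adgre1 were called under all 21 alternatives run at 24 h, with adjusted p up to 0.0176 and 0.0297. With the replicate block within each time, Il33 (adjusted p = 0.0122), Irak3 (0.0223), Il18bp (0.0421), Birc3 (0.00396) and Tnfrsf11b (9.04e-04) passed at 24 h. The numbers were not accepted as pairs there, and 8 NF-kappaB targets were called in place of 1. Of the alternatives at 24 h, 3 called Irak3, with limma adjusted p down to 0.0175, and 2 called Birc3. Dim readings near the array median limit what can be said of Tnfsf12, Il1rap, Gna12 and Gna13. They also limit the counts and medians of the pathway and family lists.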
